A study of Homo sapiens with 132 samples.

Results

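Untreated Hs746T cells harvested at the 24 h time point were compared with untreated Hs746T cells harvested at the 4 h time point, 3 libraries against 3. These are 2 of the 44 conditions of the series, each with 3 libraries, chosen by the labels for cell line, treatment and time and not by any measured value. Hs746T is an established gastric cancer cell line from a metastatic site, grown in DMEM with fetal calf serum, and was studied as a line that does not respond to cetuximab. All 6 libraries come from this single line, and no agent was added. The study seeded the cells 1 day before the start of treatment and changed the medium shortly before it, so the 24 h cells had spent longer in culture and longer in the same medium, and these cannot be told apart. The comparison asks what changes in these cells without any drug.

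Cells left in a dish use up nutrients, secrete ligands into the medium and become denser. Several well-known transcript groups follow such changes. Immediate early genes respond within minutes to growth factors and fresh serum and then decline. ID genes encode helix-loop-helix proteins without a DNA-binding domain and are classic targets of bone morphogenetic protein (BMP) receptors and their SMAD proteins. YAP, a coactivator of TEAD factors, drives genes such as CYR61 and CTGF in spread cells. The circadian clock is a feedback loop in which CLOCK and ARNTL switch on their own repressors, and a serum change can set its phase in cultured cells.

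The libraries held 45289495 to 60661089 counts on genes, except the 24 h replicate 2 library with 25832557, the shallowest of the libraries used here. Levels are given as CPM, the counts scaled to a common library total with TMM factors, and 3 counts, taken as the detection floor, were 0.116 CPM in the shallowest library. Mesenchymal VIM reached 1390 to 1980 and FN1 2080 to 3270 CPM, but TWIST1 only 0.0193 to 0.186 CPM. Among epithelial markers CDH1 (E-cadherin) stayed between 0.573 and 1.08 CPM, whereas KRT8 (320.4 to 412 CPM) and CLDN4 (269 to 414 CPM) were abundant. MET, the receptor kinase on which this line is known to depend, reached 3920 to 5580 CPM. Of 9 gut lineage markers only CDH17 passed the expression filter. Of 6 immune markers, PTPRC reached at most 0.0929 CPM and only CD14 (0.0772 to 0.277 CPM) passed the filter. A value of 0 says nothing about expression in these files, because 53 of the 793 listed genes, among them the widely used JUNB, XBP1, TIMP1 and RPL15, are listed at 0 in all 6 libraries.

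In a principal component analysis of 11830 genes, the first component (63.8% of the variance) separated both replicate 1 libraries from replicates 2 and 3. The second component (23%) separated the time points, with scores from -13 to -10.1 at 4 h and from 9.54 to 12.2 at 24 h. All pairs of same-numbered libraries therefore moved in the same direction along the second component, whereas the difference between replicates was larger than the difference between times.

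**Figure D1:**
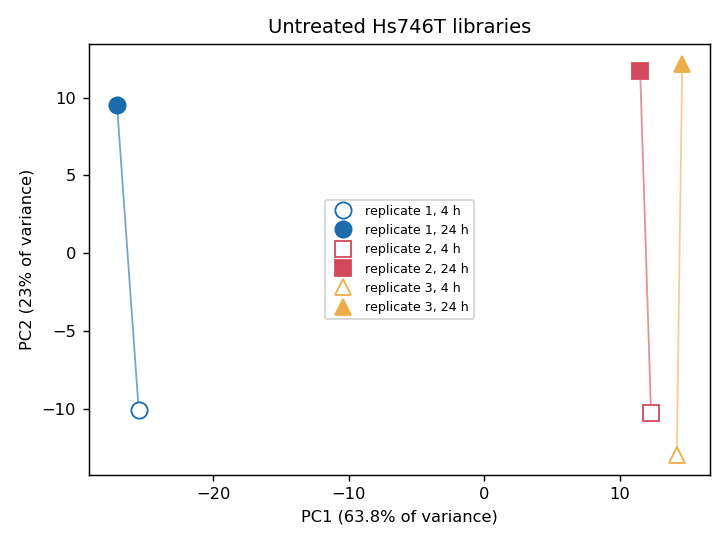
Scores of the 6 untreated Hs746T libraries on the first (x axis, 63.8% of the variance) and second principal component (y axis, 23%), in units of log2 CPM. Open symbols are 4 h, filled symbols 24 h, and lines join libraries of the same replicate number; each line runs upwards, and replicate 1 stands apart on the left.

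How many genes passed a test depended on this replicate difference. Without replicate numbers in the model, edgeR's quasi-likelihood test called 0 of 16962 genes (0%) at a Benjamini-Hochberg adjusted p below 0.05 and a log2FC beyond 1 in either direction, and 0 (0%) at the adjusted p alone, with a smallest adjusted p of 0.136. At an unadjusted p below 0.05 it listed 1700 genes, where 848 are expected if no gene changed. DESeq2 called 18. Deviations from the time point mean were correlated between same-numbered libraries (Pearson's r across genes 0.887, 0.522 and 0.712). Replicates 2 and 3 also correlated across numbers. The r was 0.703 for 4 h replicate 2 with 24 h replicate 3, and 0.541 for 4 h replicate 3 with 24 h replicate 2. These values set replicate 1 apart but cannot show that replicates 2 and 3 pair by number. The same genes were also fitted with the replicate number as a block. In this paired fit 53 genes were called higher and 56 lower at 24 h, together 0.643% of those tested. Without replicate 1 the share was 0.991% with the block and 0.525% without it, and without replicate 3 it was 0.393% with the block. At the adjusted p alone 1459 genes (8.6%) were higher and 1492 (8.8%) lower. Below, "rose" and "fell" mean an adjusted p under 0.05 in the paired edgeR fit, and the adjusted p quoted is from that fit unless stated. The median log2FC of all genes was 0.01.

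Most changes were small. The largest called rise had a log2FC of 2.13, and 1 higher and 2 lower genes changed by more than 4-fold. Of the called genes, 13 higher and 10 lower ones had a mean level above 2 CPM (log2 CPM above 1), so most calls lay among weakly expressed transcripts. Protein-coding genes made up 53.2% of the called genes against 78.3% of those tested, and long intergenic non-coding RNAs 21.1% against 7.4%. In 41 of the 53 higher and 40 of the 56 lower genes the libraries of the 2 time points did not overlap. Over all tested genes the 24 h libraries lay wholly above the 4 h libraries in 8.56% and wholly below in 8.68%.

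The clearest fall was in the ID genes and their BMP pathway neighbours. ID3 (ENSG00000117318, chromosome 1, 23557918 to 23559794, GRCh38) measured 14.5, 18.3 and 18.4 CPM in the 4 h libraries and 7.3, 4.63 and 4.92 CPM in the 24 h libraries of replicates 1, 2 and 3. Every 24 h library was below every 4 h library, and ID3 fell by 1.57 on the log2 scale (SE 0.12, adjusted p = 5.44e-12). ID2 (chromosome 2, 8678845 to 8684453) went from 5.79, 4.52 and 4.32 to 3.47, 2.12 and 1.71 CPM, again without overlap, and fell by 1.02 (SE 0.14, adjusted p = 1.15e-06). ID1 went from 24.2, 34.6 and 31.4 to 16, 17.6 and 21.5 CPM and fell by 0.69 (SE 0.08, adjusted p = 2.02e-08). These are mean levels over a dish, so less RNA in each cell and fewer expressing cells cannot be told apart. ID4 was not tested, with at most 0.111 CPM in any library.

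Of 8 tested genes in the list of ID genes and BMP signalling, 5 fell and 1 rose, with a median log2FC of -0.65. The other 2 that fell were BMP4, a ligand (log2FC -0.76), and BAMBI, a decoy receptor that dampens the pathway (-0.61). The ligand BMP2 moved the other way, from a mean of 8.96 ± 1.29 to 13.8 ± 1.87 CPM (SD, n = 3), with a log2FC of 0.62 (adjusted p = 1.74e-06). The inhibitory SMADs, which TGF-beta and BMP signals induce as brakes on themselves, belong to the list of TGF-beta targets. SMAD7 measured 16.5, 13 and 14.5 CPM at 4 h and 9.35, 7.8 and 6.48 CPM at 24 h, and fell by 0.91 (SE 0.09, adjusted p = 3.32e-09). SMAD6 fell by 0.71, SKIL and SKI, corepressors that bind SMADs, fell by 0.68 and 0.48, and PMEPA1, another inhibitor, fell by 0.51. In that list 8 of 12 tested members fell and 3 rose, with a median of -0.28.

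**Figure D2:**
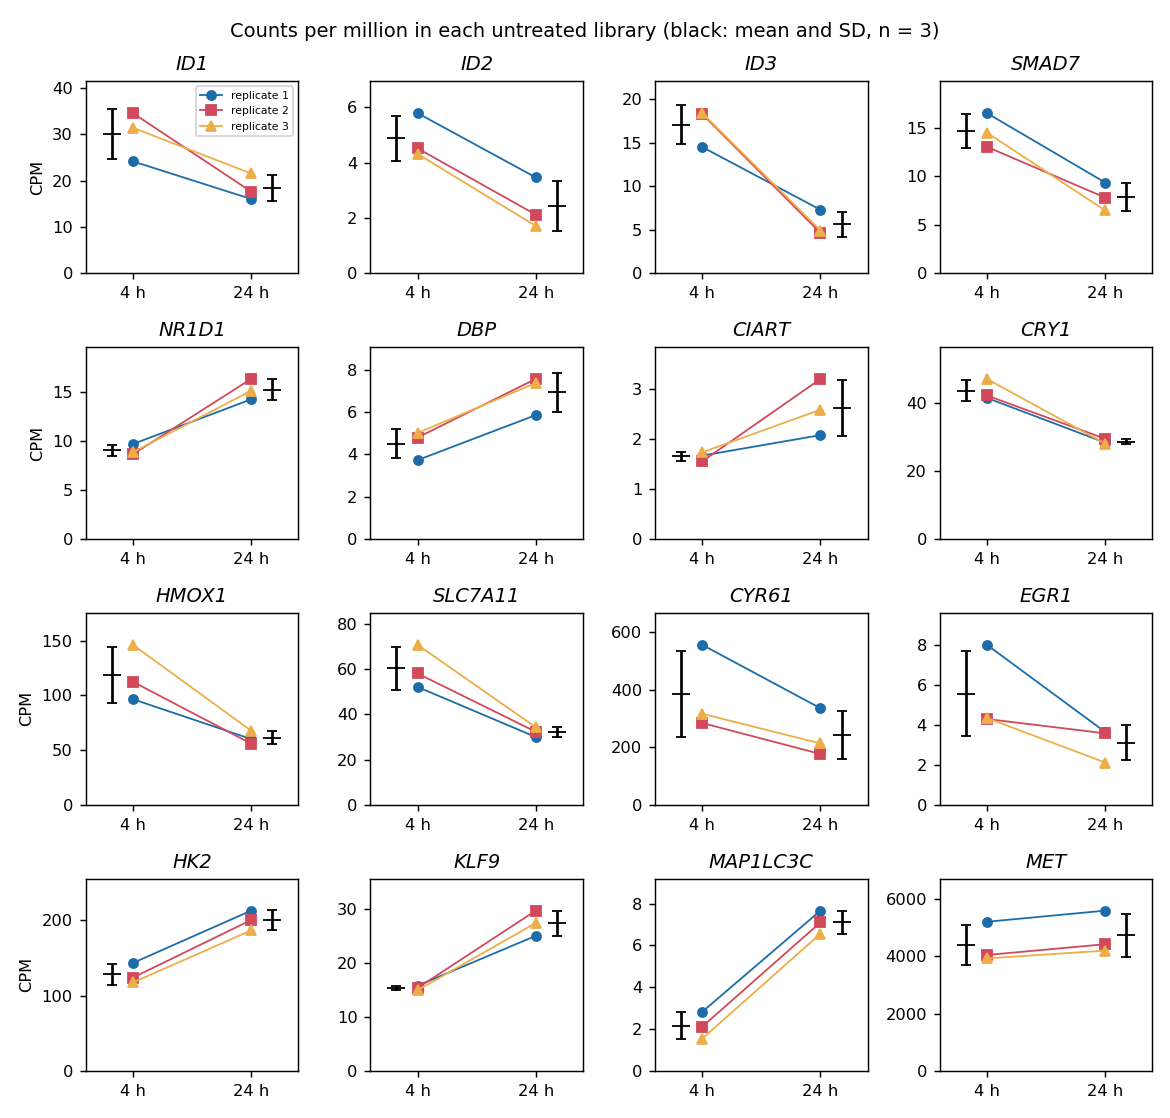
CPM (y axis, starting at 0) at 4 h and 24 h (x axis) for 16 genes in untreated Hs746T cells. Coloured lines join libraries of the same replicate number and black marks give the mean and SD of 3 libraries; ID3 falls from 17.1 to 5.62 CPM and MAP1LC3C rises from 2.16 to 7.11 CPM on average, while the lines of MET overlap in range between the time points.

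Genes driven by YAP and TEAD moved only downwards where they passed. Of 20 tested, 10 fell and 0 rose, with a list median of -0.18. CYR61, a secreted matrix protein, measured 555, 284 and 316 CPM at 4 h and 335, 177 and 213 CPM at 24 h. The time points overlapped, since replicate 1 was higher throughout, but each replicate fell, and the log2FC was -0.66 (SE 0.05, adjusted p = 4.27e-11). CTGF, its relative, fell by 0.59, TGFB2, a TGF-beta ligand, by 0.79, and ANKRD1 by 0.51. ANKRD1 did not pass without replicate 3 (adjusted p = 0.1), and in the fit without the block its log2FC was 0.18 when the 4 h replicate 1 library was left out. VGLL3, a TEAD cofactor outside the list, went from 5.31, 5.16 and 5.01 to 2.32, 1.78 and 2.17 CPM and fell by 1.29 (adjusted p = 8.25e-09). The letters GGAATG, a core TEAD motif, stood in the RefSeq promoter window (250 bases before to 50 after the start) of 4 of the 7 members that fell and had an entry. Over all promoters of that length 14% held them on either strand. The windows of CTGF (listed as CCN2) and ANKRD1 held several. The 250 bases before their starts are shown 5′ to 3′ on the gene's strand, the reverse strand in both, at chr6:131951373-131951622 and chr10:90921088-90921337 of GRCh38.p14, with GGAATG or its reverse complement in capitals.
CTGF: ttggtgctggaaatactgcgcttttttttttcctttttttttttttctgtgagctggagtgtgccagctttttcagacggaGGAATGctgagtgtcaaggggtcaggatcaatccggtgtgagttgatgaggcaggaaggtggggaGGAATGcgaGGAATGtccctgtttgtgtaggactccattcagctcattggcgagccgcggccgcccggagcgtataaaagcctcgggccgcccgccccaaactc
ANKRD1: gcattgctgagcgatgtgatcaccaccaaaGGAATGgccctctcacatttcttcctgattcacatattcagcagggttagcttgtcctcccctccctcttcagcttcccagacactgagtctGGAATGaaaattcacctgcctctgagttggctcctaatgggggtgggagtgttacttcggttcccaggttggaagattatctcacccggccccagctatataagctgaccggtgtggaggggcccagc
A match is a description of the letters and shows no binding.

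Of 24 tested immediate early genes, 13 fell, 11 did not pass and 0 rose, with a list median of -0.21. Without replicate 3, 7 fell, in a fit where 6.91% of all genes passed in either direction, against 17.4% with all replicates. EGR1, a zinc finger factor induced by MAPK signals, measured 8.02, 4.31 and 4.36 CPM at 4 h and 3.66, 3.59 and 2.13 CPM at 24 h (log2FC -0.85, SE 0.14, adjusted p = 2.77e-05). The 24 h libraries were all lower, although replicate 2 moved least. NR4A1 fell by 0.79, BTG2 by 0.72 and FOS by 0.41. Without replicate 2, BTG2 (adjusted p = 0.0768) and FOS (0.0979) did not pass, nor did FOS without replicate 3 (0.0651). The feedback inhibitors of the MAPK pathway did not move together, with 3 of 14 tested higher and 2 lower. SPRY1 went from 1.58, 1.44 and 0.906 to 2.32, 2.36 and 2.35 CPM and rose by a log2FC of 0.85 (adjusted p = 0.00082), SPRY2 rose by 0.40, and SPRY4 and the phosphatase DUSP4 fell by 0.49 and 0.56. The rise of SPRY1 did not pass without replicate 3 (adjusted p = 0.0722).

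Transcripts of EGFR and ERBB2, targets of the study's drugs, and of MET stayed close to their 4 h levels. No receptor of the 5 tested passed. MET had a log2FC of 0.11 (SE 0.05, adjusted p = 0.125), EGFR of 0.07 (SE 0.05, adjusted p = 0.369), ERBB2 of 0.08 (SE 0.06, adjusted p = 0.359), ERBB3 of 0.19 and ERBB4 of -0.32. Among 8 tested ligands 2 rose and 1 fell. HBEGF, an EGFR ligand, went from 49.6, 47.3 and 49.5 to 36.2, 32.2 and 31.3 CPM and fell by 0.55 (adjusted p = 5.84e-08). AREG, another EGFR ligand, rose from 7.09, 7.5 and 7.33 to 10.1, 9.65 and 11 CPM, a log2FC of 0.49 (adjusted p = 0.000266). HGF, the MET ligand, had a log2FC of 0.62 at a low level (1.43 ± 0.24 to 2.22 ± 0.43 CPM, SD, n = 3; adjusted p = 0.0153), and did not pass without replicate 2 or without replicate 3 (adjusted p = 0.0754 and 0.392).

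The circadian clock genes shifted in both directions. Of 19 tested members, 8 rose and 3 fell, and the list median was 0.12. NR1D1, a nuclear receptor that represses ARNTL, measured 9.69, 8.65 and 8.85 CPM at 4 h and 14.3, 16.3 and 15.1 CPM at 24 h, a log2FC of 0.74 (SE 0.09, adjusted p = 8.33e-08). The other repressors that rose were CIART (log2FC 0.64), BHLHE40 (0.46), PER3 (0.45) and BHLHE41 (0.33). The output factors DBP and TEF rose by 0.62 and 0.49, and NPAS2, a partner of ARNTL, by 0.41. CRY1, a repressor, went from 41.5, 42.2 and 47.1 to 28.4, 29.5 and 28.1 CPM and fell by 0.61 (adjusted p = 1.73e-08), the activator ARNTL fell by 0.44 and CRY2 by 0.26. The remaining members did not pass: PER2 (log2FC -0.31), PER1 (0.10), CLOCK (0.09), NR1D2 (0.14), RORA (-0.09), RORB (0.06), HLF (-0.30) and NFIL3 (0.12). With 1 replicate left out, at least 1 of the fits did not pass for CIART, PER3, BHLHE41 and CRY2. In the fit without the block, the log2FC of BHLHE41 was -0.0076 when the 24 h replicate 1 library was left out.

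The E-box CACGTG, which CLOCK and ARNTL can bind, stood in the promoter windows of 4 of the 8 clock genes that rose. It stood in 0 of the 3 that fell, too few for a contrast, and in 7.26% of all promoters. Such shares were not particular to the clock genes. The E-box stood in 4 of 9 HIF targets and 3 of 4 ribosome biogenesis genes that rose, and in 3 of 7 YAP and TEAD targets that fell. Lower shares were 1 of 6 cholesterol genes that rose and 2 of 12 ATF4 list members that fell. Where a C follows or a G precedes it, the E-box also holds the letters ACGTGC of the hypoxia response element (6.89% of all promoters). The windows of CIART and BHLHE41 are shown as examples of several matches and of 1, with CACGTG in capitals, for chr1:150282304-150282553 on the forward strand and chr12:26125038-26125287 on the reverse strand of GRCh38.p14.
CIART: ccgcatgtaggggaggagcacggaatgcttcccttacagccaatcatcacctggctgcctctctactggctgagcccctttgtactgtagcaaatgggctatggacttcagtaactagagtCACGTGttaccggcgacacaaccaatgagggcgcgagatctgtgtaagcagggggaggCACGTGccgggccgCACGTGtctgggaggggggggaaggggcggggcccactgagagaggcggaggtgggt
BHLHE41: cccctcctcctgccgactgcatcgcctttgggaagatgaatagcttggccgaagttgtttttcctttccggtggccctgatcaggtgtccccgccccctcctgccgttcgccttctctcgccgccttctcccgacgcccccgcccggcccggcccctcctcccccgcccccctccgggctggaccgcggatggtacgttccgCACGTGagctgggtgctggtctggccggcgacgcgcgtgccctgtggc

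Part of the genes for amino acid uptake and defence against oxidants fell. In the list of ATF4 targets and the amino acid response, 13 of 28 tested members fell and 2 rose (median -0.17). SLC7A11, the cystine transporter, measured 52.1, 58 and 70.6 CPM at 4 h and 30, 32.3 and 34.3 CPM at 24 h, and fell by 0.90 (SE 0.06, adjusted p = 2.65e-12). SLC7A5, which carries large neutral amino acids, fell by 0.79 and its partner SLC3A2 by 0.45. ASNS, asparagine synthetase, fell by 0.36 and ATF4 itself by 0.21. Without replicate 3 the change of ATF4 did not pass (adjusted p = 0.365). DDIT4, an inhibitor of mTORC1, moved the other way, with a log2FC of 0.58. Of 15 tested NRF2 targets, 5 fell and 1 rose. HMOX1, heme oxygenase, went from 96.6, 112.5 and 146 to 60.2, 56.1 and 67.9 CPM, fell by 0.93 (SE 0.06, adjusted p = 1.95e-12) and had the smallest adjusted p of all genes. OSGIN1 fell by 0.67 and GCLM, a subunit of the enzyme that starts glutathione synthesis, by 0.60, but NQO1 (log2FC -0.03) did not pass. SLC7A11 stands in both lists. NMRAL2P (chromosome 3, 185959943 to 185980872), a pseudogene, fell by 1.52, from a mean of 6.39 ± 1.21 to 2.21 ± 0.51 CPM (SD, n = 3).

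Some genes of hypoxia, glycolysis and lipid synthesis rose by small amounts. Of 18 tested HIF targets 10 rose and 2 fell, and none of the 4 HIF regulators passed. ANKRD37 rose from 5.35, 5.65 and 5.67 to 7.28, 9 and 9.04 CPM (log2FC 0.59), and PFKFB4, which sets the level of a glycolytic activator, rose by 0.48. CA9, carbonic anhydrase 9, fell by 0.95 (adjusted p = 0.0276), at 0.241 to 1.52 CPM, and did not pass without replicate 1 or without replicate 3 (adjusted p = 0.553 and 0.0573). Of 21 glycolysis genes 4 rose and 1 fell. HK2, hexokinase 2, measured 143.4, 123.9 and 117.5 CPM at 4 h and 213, 200.5 and 187 CPM at 24 h without overlap (log2FC 0.64, SE 0.05, adjusted p = 8.33e-11). MIR210HG, the host transcript of a hypoxia-induced microRNA, rose by 1.14, from 9.38, 7.68 and 6.34 to 17.8, 15.4 and 18 CPM. It was named after its values were seen. In lipid synthesis, 8 of 26 cholesterol genes and 6 of 9 fatty acid genes rose and 0 fell, among them ELOVL6 (log2FC 0.40), INSIG1 (0.39), MSMO1 (0.38) and SREBF1 (0.36). Without replicate 3, and for cholesterol also without replicate 1, each list had 4 rises. In these fits 6.91% and 11.4% of all genes passed, against 17.4% with all replicates. In the treated cells described further on 0 members of either list passed, and only 0.742% of all genes were higher. The list medians there were 0.06 for cholesterol and 0.26 for fatty acids, against 0.08 and 0.26 in untreated cells.

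Of 46 S phase genes 1 rose and 5 fell (median -0.05), and of 51 G2 and M phase genes 4 rose and 4 fell (median -0.03). Only 1 of 67 ribosomal protein genes rose and 0 fell (median 0.02). Of 32 ribosome biogenesis genes 4 rose and 2 fell. Against the 8.6% of all genes that rose and the 8.8% that fell, this was 1.49% of the ribosomal protein genes rising, 10.9% of the S phase genes falling and 12.5% of the biogenesis genes rising. These counts moved without replicate 2, the pair with the shallow library, to 13 ribosomal protein genes rising and 12 S phase genes falling. Over all genes 19.5% passed in that fit, in either direction, against 17.4% with all replicates. The part of sequencing depth in this was not tested. In the extracellular matrix list, 5 of 28 rose and 5 fell: 4 of 15 collagens fell, among them COL1A1 (log2FC -0.27), and the glycoproteins TNC (0.31) and LAMA5 (0.32) rose. Without replicate 3, LAMA5 (adjusted p = 0.19) and COL1A1 (0.0531) did not pass.

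**Figure D3:**
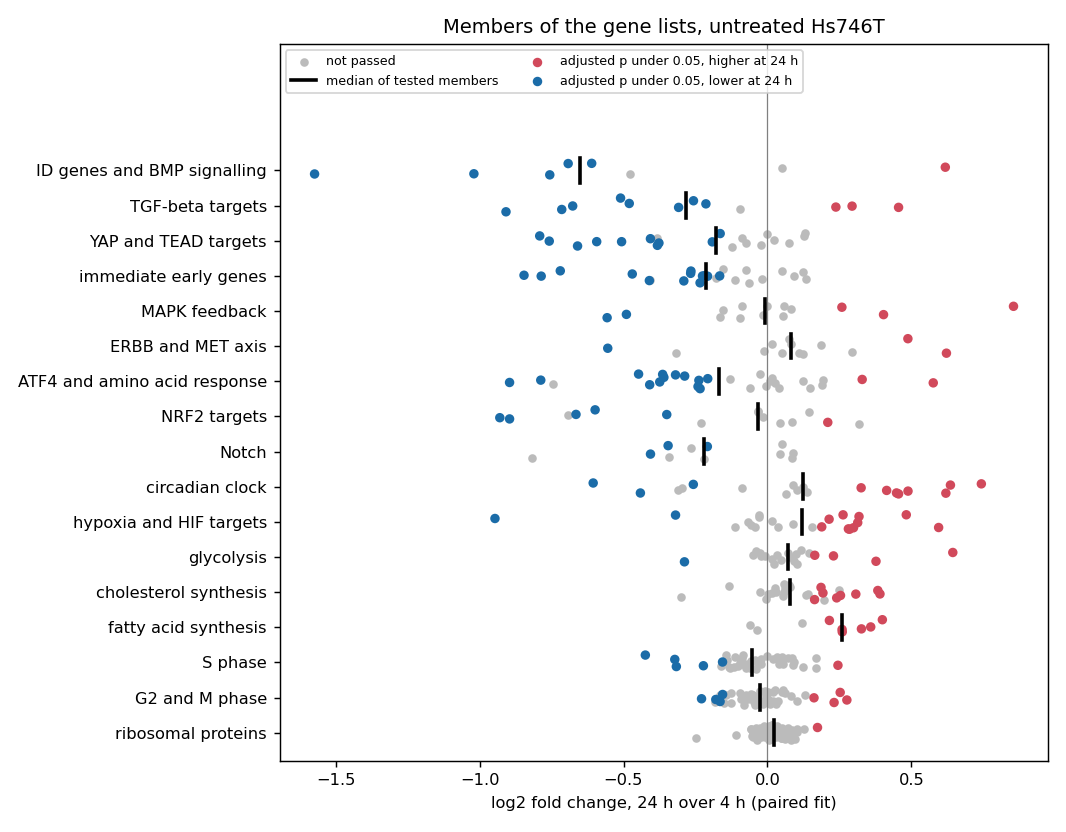
Log2 fold change of each tested list member between 24 h and 4 h in the paired fit (x axis), by gene list (y axis). Red and blue points passed an adjusted p of 0.05, grey points did not, and black bars are list medians; the ID and BMP list has the lowest median (-0.65) of the lists drawn and the fatty acid list the highest (0.26).

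The largest rises by the fold change rule included several non-coding transcripts. MAP1LC3C (chromosome 1, 241995490 to 241999073), a member of the ATG8 family of autophagy proteins, measured 2.82, 2.11 and 1.54 CPM at 4 h and 7.67, 7.1 and 6.56 CPM at 24 h, a log2FC of 1.73 (SE 0.13, adjusted p = 6.01e-12). GABARAPL1, of the same family, fell by 0.56. LYPD5 rose by a log2FC of 1.43, from 1.91, 1.31 and 1.16 to 3.97, 3.98 and 3.84 CPM. GABRG3, a GABA receptor subunit, rose in each replicate (log2FC 1.30), but its 24 h levels ran from 1.82 to 5.64 CPM and overlapped those at 4 h. The intergenic transcripts AC099560.1 and AL118508.2 had a log2FC of 1.42 and 1.24. AC117386.2, annotated as antisense, had 1.26, and the strand setting of the counting is not given in the sources used here.

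RN7SL2, a 7SL RNA of the signal recognition particle, and RF00100, a 7SK RNA, are transcripts of RNA polymerase III without a poly(A) tail, whereas the libraries were made from purified mRNA. RN7SL2 measured 2.1, 2.74 and 8.31 CPM at 4 h and 14.8, 17.7 and 9.81 CPM at 24 h (log2FC 1.81), so replicate 3 changed little. RF00100 measured 0.984, 1.39 and 3.24 CPM at 4 h and 4.42, 5.06 and 7.79 CPM at 24 h (log2FC 1.70). RN7SL2 has a near-identical copy in the genome, and reads shared with it are uncertain. The part of carry-over of RNA without a tail in these values was not tested.

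Among the other large falls were IL3RA, the interleukin-3 receptor alpha chain, at 7.32, 7.31 and 9.1 CPM against 3.07, 4.05 and 3.25 CPM (log2FC -1.21, adjusted p = 2.15e-09), NTF4, a neurotrophin (log2FC -1.22), PERM1, a regulator of muscle metabolism (-1.27), and LINC01583 (-1.20). PERM1 was higher in replicate 1 at both times and overlapped between the time points. KLF9, a factor known to respond to glucocorticoids, rose from 15.8, 15.4 and 15 to 25.1, 29.7 and 27.4 CPM (log2FC 0.83, adjusted p = 2.33e-10). SLC30A1, the zinc exporter, fell by 0.75. CX3CL1, a chemokine, was the only called member of the list of chemokines and cytokines (log2FC 1.12). Its levels were 0.0186 to 0.695 CPM, and it did not pass with any 1 replicate left out.

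The same time comparison could be made in Hs746T cells that received an agent, which are other libraries. They carry the same replicate numbers as the untreated ones, and the sample numbers in the labels, which restart once in the series, place the 4 h libraries of replicate 2 before and the 24 h libraries of replicate 2 after the restart in both sets. What this shared layout contributes to the values was not tested. The agents, given for 4 h or 24 h, were the EGFR antibody cetuximab at 1 μg/ml, the EGFR ligand EGF at 5 ng/ml, these 2 combined, the kinase inhibitor afatinib at 0.5 μM, the ERBB2 antibody trastuzumab at 5 μg/ml, and the last 2 combined. The counts of the 6 treatments were summed within time and replicate number. Treatment time differs between these groups as well, so an effect of time and an effect of longer treatment cannot be told apart here. In the paired fit of these sums 39 of 21953 genes (0.178%) were called, and at the adjusted p alone 0.742% were higher and 0.487% lower. Without the block 0 were called and 1875 had an unadjusted p below 0.05, where 1098 are expected if no gene changed. Of the genes called in untreated cells, 96.3% had a fold change in the same direction, 27 of them at an adjusted p below 0.05, and 0 passed in the opposite direction. Over all genes tested in untreated cells, 75.5% had the same direction. The 21 genes called in both are 19.3% of the untreated and 53.8% of the treated calls. In the fits of single agents, 69 of the genes called in untreated cells (63.3%) were tested and had the same direction with all 6. The other genes include those not tested with at least 1 agent, so this share is not one of agreement alone. Among the called genes tested with a given agent, 91.1% (afatinib) to 97.1% (trastuzumab) had the same direction. No share over all genes is given for the single agents.

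ID3 fell by 1.77 in the treated sums (adjusted p = 0.0354). ID2 fell by 1.05 and SMAD7 by 0.76 there, and both passed. NR1D1 (log2FC 0.62), CRY1 (-0.68), ARNTL (-0.63), CYR61 (-0.95), EGR1 (-0.96), HMOX1 (-0.83), SLC7A11 (-0.71), HK2 (0.78), KLF9 (0.82) and MAP1LC3C (1.56) also passed with the direction seen in untreated cells. RN7SL2 (log2FC 1.09, adjusted p = 0.224) and RF00100 (0.49, adjusted p = 0.218) did not. Most list members that passed in untreated cells did not pass in the treated sums, where 0.742% of all genes were higher and 0.487% lower. There 2 of 25 immediate early genes and 2 of 28 ATF4 list members were lower, and 0 of either were higher. Of 22 genes in the hypoxia and HIF list 0 were higher and 1 lower, and of 19 clock genes 2 were higher and 2 lower. Of 9 genes in the ID and BMP list 1 was higher and 3 lower, and 4 of 20 YAP and TEAD targets were lower. Every member of these lists that passed in untreated cells had the same direction in the treated sums. Over all genes that passed in untreated cells this share was 96.7%. List medians there and in untreated cells were -0.21 and -0.21 for immediate early genes and -0.22 and -0.17 for ATF4. They were 0.09 and 0.12 for HIF and 0.17 and 0.12 for the clock. The ID and BMP list had -0.71 and -0.65, and YAP and TEAD targets -0.15 and -0.18. Ribosomal protein genes had a median of -0.25 in the treated sums against 0.02 in untreated cells, and 0 of them passed there.

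**Figure D4:**
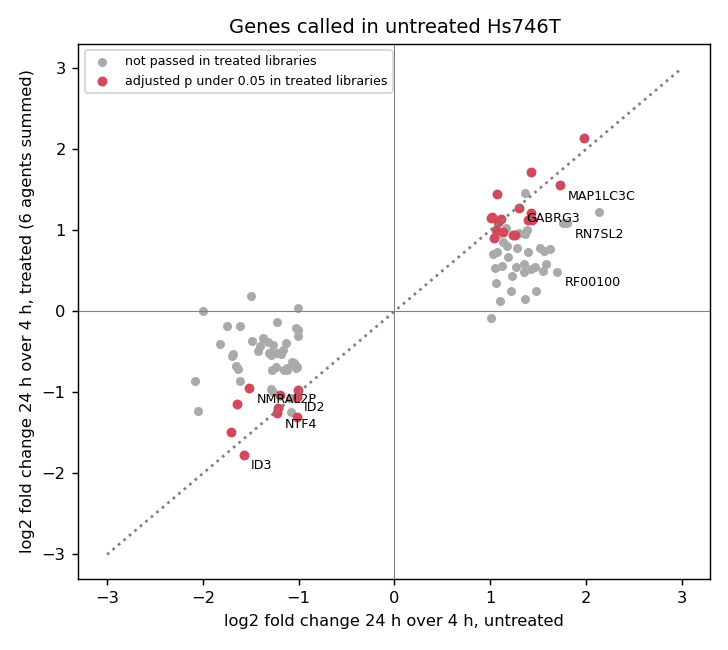
Log2 fold change between 24 h and 4 h in untreated cells (x axis) and in the summed treated libraries (y axis) for the genes called in untreated Hs746T cells (53 higher, 56 lower). The dotted line marks equal values and red points passed an adjusted p of 0.05 in the treated libraries; 96.3% of the genes have the same sign on both axes.

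Whether these changes differed from those in other gastric cancer lines was tested with an interaction of line and time in the 24 untreated libraries of Hs746T, MKN1, MKN7 and NCI-N87 cells. These lines grow in RPMI medium, Hs746T in DMEM, so line and medium cannot be told apart. The time effect differed from that of MKN1 in 630 of 20560 genes (3.06%), and in 1070 (5.2%) with the replicate number of each line as a block. Against MKN7 it was 8 genes (0.0389%) without the block and 0.885% of genes with it, and against NCI-N87 3 genes (0.0146%) and 60 (0.292%). Without replicate 2 of each line the shares with the block were 2.87%, 0.0966% and 0.029%.

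The ID genes stood among the differences from MKN1. ID3 averaged 16.8 CPM at 4 h and 5.48 CPM at 24 h in Hs746T but 16 and 67.5 CPM in MKN1 cells, a difference of -3.67 in log2FC (SE 0.35, adjusted p = 9.63e-06 in the fit without a block). ID2 and ID1 differed by -2.82 and -1.88, SMAD7 by -1.38 and SMAD6 by -1.34, and each of these genes was lower at 24 h in Hs746T and higher in MKN1. In the paired fit the fall of ID3 also differed from MKN7 (adjusted p = 0.000588) and from NCI-N87 (adjusted p = 0.0417), where its log2FC was 0.19 and -0.29. PMEPA1 fell in both lines, by more in MKN1, so that its difference was 1.38. For NR1D1 the difference passed against all 3 lines in the paired fit only, with adjusted p of 0.0127 (MKN1), 0.000881 (MKN7) and 0.0207 (NCI-N87). DBP, in contrast, was 0.60 in Hs746T and 1.98 in MKN1 cells.

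**Figure D5:**
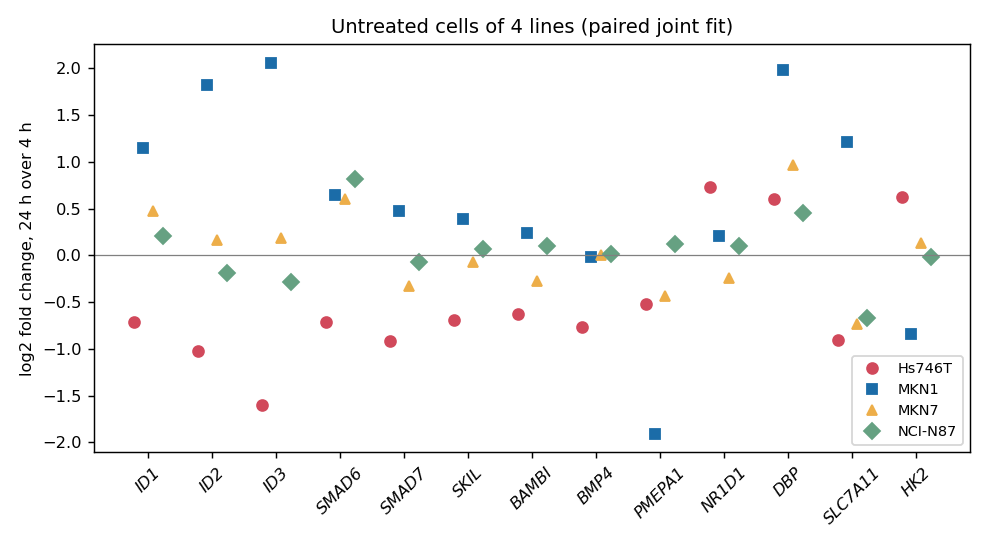
Log2 fold change between 24 h and 4 h in untreated cells (y axis) for 13 genes (x axis) in 4 gastric cancer cell lines, from the paired joint fit. Hs746T (red circles) has ID3 at -1.60 and MKN1 (blue squares) at 2.06.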

How the data were processed

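Raw counts per Ensembl gene identifier were deposited by the authors, one table per library. Per the labels and the study's methods, mRNA was purified, directional libraries were sequenced paired end, and Trim Galore, STAR and hg38 were used; the counter and its strand setting are not given in the sources used here. Identifiers were matched to GENCODE 29 (GRCh38); 8404 of 65217 did not match (0.0374% of the counts). Total counts were 25832557 to 60661089 in the 6 untreated Hs746T libraries.

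The 24 h and 4 h libraries were compared over all genes passing filterByExpr (minimum count 10) by the quasi-likelihood test of edgeR 4.0.16 under R 4.3.3, after TMM scaling. The intended fit had no replicate term. Pearson's r of deviations was 0.887, 0.522 and 0.712 for same-numbered libraries (above 0.1 each). The blocked fit, paired by the numbers in the labels, is therefore given beside the counts of the intended fit. Genes said to have risen or fallen in untreated Hs746T cells rest on the blocked fit. In the intended fit 0 genes passed the adjusted p. However, 4 h replicate 2 correlated more with 24 h replicate 3 (0.703), and 4 h replicate 3 with 24 h replicate 2 at 0.541. Pairing by number between replicates 2 and 3 is not shown by these values. The study describes its replicates as biological. The named genes are the 8 largest rises and 8 largest falls of called genes with mean log2 CPM above 1 and 1 direction in all 3 pairs, taken from the blocked fit because the unblocked fit called none, and the largest changes of 38 lists. Members and lists were chosen with earlier results of these data known. Counts of 16726 genes were simulated for this comparison, with changes of 0.5, 1, 1.5 and 2 on the log2 scale spiked in. Changes of 1 and 0.5 passed the adjusted p in 100% and 90% of cases with the block, and in 58% and 16% without it. Changes of 1.5 and 2 passed in 100% each with the block, and in 96% and 94% without it. With the fold limit added, changes of 1 were called in 44% with the block and 26% without it. With the block 13 unchanged genes passed, and 0 without it. The simulation used replicate means shared by both times and the spread of the blocked model. Pairing by number was thus built in, and the gain with the block cannot show that the real libraries pair. DESeq2 1.42.0, other scalings and filters, a series covariate and leaving out libraries were tried; blocked versions of these and the summed treated libraries were chosen after seeing the data. Promoters are RefSeq windows (GRCh38.p14), the first listed for a gene. Figures were drawn with matplotlib. The values of some list members are not reported here.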

Additional observations from a re-analysis of the deposited data

Results flagged for a closer look

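The time effect differed between Hs746T and another untreated line, by the interaction term of edgeR without a block, in 630 genes against MKN1, in 8 against MKN7 and in 3 against NCI-N87. Against MKN1, the differences in log2FC (Hs746T minus MKN1) were -3.67 for ID3, -2.82 for ID2, -1.88 for ID1, -1.38 for SMAD7, -1.34 for SMAD6 and -1.09 for SKIL. They were -1.82 for PERM1, -1.56 for NMRAL2P and -1.52 for IL3RA, and positive for NOG (1.96), PMEPA1 (1.38) and LTBP2 (1.12). NOG, a secreted BMP antagonist, averaged 58.2 CPM at 4 h and 59.5 CPM at 24 h in Hs746T cells and 11.4 and 3 CPM in MKN1 cells. With 1 replicate number left out, ID3 (adjusted p from 9.10e-05 to 0.0196), SMAD7 (0.00195 to 0.0373) and PMEPA1 (0.00143 to 0.0373) passed each time. The other 9 genes named did not pass in at least 1 of these fits. Among them PERM1 and SKIL passed in none, with lowest adjusted p of 0.0652 and 0.0612.

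The 3 genes that differed from NCI-N87 were SFN (difference 1.43), LINC00707 (1.70) and HERPUD1 (1.58), named after their values were seen. HERPUD1, an endoplasmic reticulum stress gene, averaged 39.6 and 34.5 CPM in Hs746T cells at 4 h and 24 h and 189 and 55.5 CPM in NCI-N87 cells. The difference did not pass for any of these 3 with any 1 replicate number left out, where the lowest adjusted p was 0.104, 0.0553 and 0.167.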

How the results depend on the processing

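With the replicate number as a block, the share of tested genes called went from 0% to 0.643%, and at the adjusted p alone from 0% to 17.4% (2951 genes). Other settings called 0.129% (1.48% at the adjusted p alone) with all 42 Hs746T libraries, 0.106% (2.08%) with DESeq2 and 0.0209% (0.0383%) without a filter. All 42 libraries with the block gave 0.536% (10.2%). The joint paired fit of 4 lines gave 54 calls for Hs746T. At the adjusted p alone 764 of 20560 genes passed there, 285 higher and 479 lower, so fewer of all genes passed. In it 3 immediate early genes fell in place of 13, and 2 HIF and 2 cholesterol genes rose in place of 10 and 8. The medians of these 3 lists were -0.23, 0.07 and 0.06, against -0.21, 0.12 and 0.08 in the paired fit of Hs746T alone. Leaving out a replicate or a single library without the block gave 0% to 0.525%, and 0% to 7.22% at the adjusted p alone, the highest in both cases without replicate 1. Within the paired fit, DESeq2 called 0.136% (11.2%) and a minimum of 10 counts in every library 0.341%, that is 23 and 51 genes, of which 23 and 49 were among those called in the paired edgeR fit. Leaving out replicates in the paired fit gave 0.393% to 0.991%, and 6.91% to 19.5% at the adjusted p alone. Of the 53 higher and 56 lower calls, 65, 60 and 44 in all were called without replicates 1, 2 and 3. Genes called in the same direction in untreated cells and with all 6 agents numbered 0, with DESeq2 4, and 0 to 1 with a replicate left out. The 0 was fixed in advance, because the fits without the block called 0 genes in untreated cells and with each agent. With the block it was fixed as well. The fits of EGF with cetuximab, of trastuzumab and of trastuzumab with afatinib then called 0 genes. The share of genes with a time effect different from MKN1, MKN7 and NCI-N87 went from 3.06%, 0.0389% and 0.0146% to 5.2%, 0.885% and 0.292% with the replicate block. DESeq2 gave 0.345% and 0.126% against MKN7 and NCI-N87, no filter 0.063% and 0.033%, and library size alone 0.0243% against NCI-N87. With a replicate left out these shares were 0.193% to 2.31%, 0% to 0.0382% and 0% to 0%. With the block they were 2.87% to 5.43%, 0.0966% to 1.24% and 0.029% to 0.473%, each lowest without replicate 2. The fold change of DHCR7 turned to -0.16 with the series as a covariate. In the fit without the block, leaving out a single library changed the sign of the log2FC in 7 of the genes reported, with no adjusted p under 0.05. It ran from -0.0076 to 0.65 for BHLHE41, from -0.15 to 0.47 for DHCR7, from -0.037 to 0.69 for VLDLR, from -1.24 to 0.18 for ANKRD1, from -0.24 to 0.75 for LAMA4, from -0.034 to 0.62 for HSPG2 and from -0.16 to 0.74 for PLAT. The extremes came without the 4 h or the 24 h replicate 1 library in each. The causes were not tested.

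Among 38 lists, the count of passing members moved by over 1.5 times in 10, 8 and 21 lists when replicate 1, 2 or 3 was left out of the paired fit. Over all genes 11.4%, 19.5% and 6.91% passed in these fits, against 17.4% with all replicates. The ID and BMP list kept 5 falls and 1 rise each time, the immediate early genes went from 13 falls to 7 without replicate 3, and the respiratory chain genes from 5 rises to 0 without replicate 1 or 3 and to 16 without replicate 2. At 25832557 counts the 24 h replicate 2 library limits what can be seen in weakly expressed genes.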
